A study of Mus musculus with 6 samples.

Results

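Langerhans cells, the dendritic cells of the epidermis, were picked out of single-cell profiles of mouse dorsal skin taken before and after depilation. The cells were chosen by their own UMI counts (unique molecular identifiers, each standing for 1 captured transcript). A barcode counted as a Langerhans cell when it had 500 to 7000 detected genes, at most 10% mitochondrial UMIs, at least 1 UMI of Cd207 and at least 15 UMIs over Cd74, H2-Aa and H2-Ab1 that made up at least 50 of every 10000 UMIs. Of 61031 barcodes, 55177 passed the limits on genes and mitochondrial UMIs, and 976 of these, or 1.77%, were Langerhans cells. The skin came from wildtype adult FVB males, 55 to 57 days old, whose backs had been shaved and waxed to start hair regrowth, and it was harvested at 0 h, 4 h and 16 h and on days 2, 4 and 6. Each time point was 1 library made from the cells of 2 mice, digested separately and mixed in equal numbers. The spread between mice or between libraries of 1 time point was therefore not measured, no test between 2 time points was possible, and the intervals given below are exact 95% intervals that cover counting error only.

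Langerhans cells live among the keratinocytes of the epidermis and of the upper hair follicle, renew themselves in place by division, and take up antigen through their dendrites. Class II molecules, assembled with the invariant chain Cd74 and loaded with peptide by H2-DM in the endosome, display that antigen to helper T cells. On maturation the cells gain the chemokine receptor Ccr7, leave the epidermis and travel to the draining lymph node.

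The 976 cells carried the markers of their type that had not been used to choose them. Mfge8, a secreted protein that binds dying cells, was at 981, 776, 1505, 2042, 1462 and 1680 counts per 1000000 UMIs (CPM), taking all Langerhans cells of a library as 1 sum. Here and below, 6 values in a row run in order of time from 0 h to 6 d. Ltc4s, the leukotriene C4 synthase, was at 955, 685, 647, 991, 760 and 808 CPM. Both were present throughout, in 90.1% or more and 84.8% or more of the cells of each library by gene (Mfge8, Ltc4s), and the mean level of Ltc4s was 934-fold that in all other passing cells.

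The genes with the largest ratio of their mean level in Langerhans cells to that in all other passing cells, among genes with at least 100 CPM, were Cd207 at 2042-fold, Cd74 at 1218-fold, C1qa at 1205-fold, H2-Ab1 at 1180-fold and Fcgr2b at 1139-fold, followed by Cd86 at 1029-fold, H2-Aa at 959-fold, Plek at 957-fold, Ltc4s at 934-fold and Cd72 at 928-fold. Cd207, Cd74, H2-Aa and H2-Ab1 stand on this list because the choice of cells used them. C1qa, a complement subunit otherwise known from macrophages, was at 201 to 679 CPM, and its partners C1qb and C1qc were at 0 to 27.2 and 4.44 to 28.1 CPM. Of the other genes on a macrophage list, apart from Apoe, Cd68 was at 46.7 to 90.6 CPM and Lyz2 at 8.28 to 48.3 CPM, Pf4 reached 15.5 and Mrc1 9.96 CPM, and Cd163 and Folr2 had no UMI in any library. Adgre1, which encodes F4/80 and stands on the list of Langerhans cell identity, was at 44.4 to 81.9 CPM, and all of these but Cd163 and Folr2 had a higher mean level in Langerhans cells than in all other passing cells. Of the 22 genes of a list of Langerhans cell identity, all were measured, with Epcam, an adhesion molecule shared with keratinocytes, at 1520 to 2245 CPM, and Csf1r, the receptor for the growth factor that maintains these cells, at 283 to 609 CPM.

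The edge of the choice was sharp for class II and softer for Cd207. Just inside it, 53 cells had only 1 or 2 Cd207 UMIs and 1 cell had 15 to 17 class II UMIs. Just outside it, 23 cells met the class II limits without a Cd207 UMI, with a median of 81 class II UMIs, and 9 cells had Cd207 but only 10 to 14 class II UMIs. A further group of 969 passing cells had a Cd207 UMI and were not chosen, and their medians were 1 Cd207 UMI, 0 class II UMIs and 141 UMIs of Krt5 and Krt14 per 10000.

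RNA of other cell types was present in some Langerhans cells. Of the 976, 180 were predicted doublets, or 13%, 12%, 21.2%, 15.7%, 27.3% and 22.5% by time, against 5.85% to 11.1% of all passing cells. The 10 T cell genes summed to 617, 215, 344, 429, 520 and 25.6 CPM, led by Cd3g at 0 h and 4 d, and to 9283 CPM or more in T cells. The 5 basal keratinocyte genes summed to 2914, 4938, 9629, 5737, 4792 and 6316 CPM, led by Krt14, the 7 suprabasal ones to 2509, 10480, 9003, 4634, 2990 and 4191 CPM, led by Krt10 from 4 h on, and the 4 activated ones to 357, 1668, 937, 513, 982 and 1830 CPM.

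No mast cell gene of 4 was detected, and monocyte genes summed to at most 13.1, B cell genes to at most 1.81 and neutrophil genes to at most 6.34 CPM. The 10 macrophage genes summed to 2550, 1772, 2605, 2279, 2807 and 3392 CPM, most of it Apoe, a lipid carrier that other skin cells also make, and to 4225 CPM or more in all other passing cells. At 4 d the 4 melanocyte genes summed to 99.1 CPM and the 4 fibroblast genes to 70.4 CPM, against 642 and 111 CPM in all other passing cells there. The 6 genes of type 1 dendritic cells summed to 54.4 to 135 CPM, highest at 4 d where Xcr1 had 16 UMIs, 75% of them in 1 cell, and the 6 of type 2 dendritic cells to 9.20 to 34.6 CPM. The cycling share, the numbers of genes past 2-fold and the tests were repeated without predicted doublets. They were also repeated in the 787 cells with no Cd3d, Cd3e or Cd3g UMI and fewer than 20 Krt5 and Krt14 UMIs per 10000. The share of Langerhans cells was repeated without predicted doublets. These values are given where they changed a result. Levels of genes, counts by gene list, peak times and shares of cells with a UMI are given for all Langerhans cells only.

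**Figure D1:**
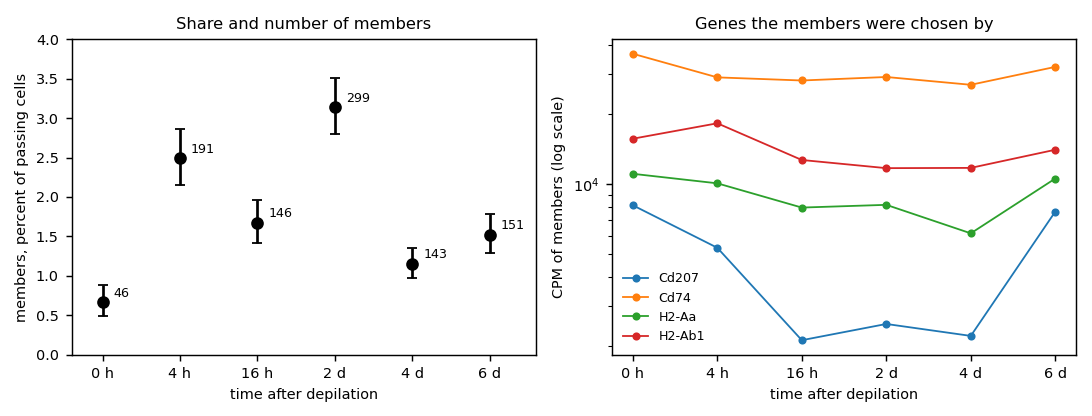
Left, the share of passing cells (percent) that were Langerhans cells at each time after depilation, with exact 95% binomial intervals and the number of cells. Right, levels (CPM, log axis) of the 4 genes that the choice of cells used, where Cd207 ran from 2126 to 8114 CPM and the 3 class II genes varied less.

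Langerhans cells numbered 46 of 6925 passing cells at 0 h, then 191 of 7663, 146 of 8729, 299 of 9534, 143 of 12410 and, at 6 d, 151 of 9916. As shares these were 0.664% (0.487 to 0.885), 2.49% (2.16 to 2.87), 1.67% (1.41 to 1.96), 3.14% (2.80 to 3.51), 1.15% (0.972 to 1.36) and 1.52% (1.29 to 1.78). The share was lowest at 0 h and highest at 2 d, and the intervals of both lay outside those of all other times except that of 4 h, which met that of 2 d. Without predicted doublets the intervals of 0 h and 4 d met as well. Digestion and the number of other cells captured set these shares too, and they cannot be told apart here from a change in the skin. The Langerhans cells held 269025, 1103985, 1087358, 1556586, 837802 and 900245 UMIs in all, with a median of 5240 UMIs per cell at 0 h and 4040 to 5146 at the later times, so the 0 h values rest on the fewest cells and counts.

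Cd207 (langerin), the lectin that forms Birbeck granules, was at 8114, 5321, 2126, 2498, 2219 and 7619 CPM. It was high at both ends of the series and low from 16 h to 4 d. The median cell had 43.5, 22, 11.5, 10, 11 and 33 Cd207 UMIs at these times. Because a Cd207 UMI was required of every cell, these are descriptions with no test, and cells that had lost the transcript altogether were not counted. Of the 23 cells with class II and no Cd207 UMI, 11 were in the 2 d library and no other library held more than 4.

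Compared with 0 h, many genes of the Langerhans cells differed by more than 2-fold at every later time. Among 3794 genes with at least 200 UMIs over the 6 sums, 667 were over 2-fold higher and 354 over 2-fold lower at 4 h (17.6% and 9.33%), 651 and 308 at 16 h (17.2% and 8.12%), 436 and 210 at 2 d (11.5% and 5.54%), 805 and 491 at 4 d (21.2% and 12.9%), and 407 and 205 at 6 d (10.7% and 5.4%). The number was thus largest at 4 d. It was smallest at 6 d, but with a minimum of 50 UMIs, which takes in more genes, it was 1958 at 2 d and 1973 at 6 d, so these times had no fixed order. With TMM scaling, which lowers the log2 difference from 0 h by 0.20, 0.22, 0.11, 0.27 and 0.07 for all genes at these times, the splits were 502 higher and 494 lower, 454 and 481, 349 and 287, 525 and 736, and 368 and 246. The comparisons share the 0 h library, so a gene with an unusual value there is counted at several times. That library had only 46 Langerhans cells with 269025 UMIs, so a gene near the minimum had few UMIs there. The part of counting error and of single cells in these numbers was not tested, and they are not counts of genes shown to have changed.

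Of 12 class II genes with at least 200 UMIs that the choice of cells had not used, 0 were over 2-fold higher at any time, and 1 was over 2-fold lower at 4 h, 16 h and 6 d each and 2 at 2 d and 4 d each. Of all genes, 10.7% to 21.2% were higher and 5.4% to 12.9% lower at these times. The median log2 difference of the 12 class II genes from 0 h lay between -0.12 and 0.19, against 0.06 to 0.21 for all 3794 genes.

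The class II chains were lowest at 4 d, with the exception of H2-Ab1. H2-Aa was at 11090, 10090, 7932, 8150, 6142 and 10580 CPM, H2-Ab1 at 15710, 18310, 12720, 11730, 11760 and 14080 CPM, and the invariant chain Cd74 at 36510, 28880, 28000, 28990, 26830 and 32050 CPM, again with no test since they chose the cells. H2-Eb1, the beta chain of the other class II molecule, was at 520 (438 to 614), 564 (521 to 610), 281 (251 to 315), 283 (258 to 311), 177 (149 to 208) and 588 (539 to 640) CPM. Its values fell into a high set at 0 h, 4 h and 6 d and a low set at 16 h, 2 d and 4 d with no overlap of their intervals.

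Of the genes that load peptide onto class II, H2-DMa, a chain of the loading factor H2-DM, was at 1539, 1001, 1527, 1812, 1869 and 1497 CPM, and its partner H2-DMb1 at 428, 361, 521, 675, 844 and 434 CPM. Both were lowest at 4 h and highest at 4 d, the time at which H2-Aa and H2-Eb1 were lowest. The other beta chain, H2-DMb2, did not share that course and was at 249, 283, 382, 282, 313 and 374 CPM. H2-Oa, a chain of H2-DO, which holds H2-DM in check, was at 245 (190 to 312) CPM at 0 h and at 50.1 to 103 CPM later, and its partner H2-Ob was at 123, 116, 75.4, 102, 77.6 and 68.9 CPM. Ciita, the master regulator of class II transcription, was at 100, 195, 134, 109, 130 and 113 CPM, and the invariant chain protease Ctss at 487 to 611 CPM. None of the 14 class II genes tested passed the time course test described below.

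The stretches just before the transcription starts of these genes are shown because a shared promoter box is known for the family. Class II promoters carry a Y box, an inverted CCAAT box bound by NF-Y, and 84.6% of the 13 class II genes found in the promoter table from RefSeq held CCAAT or its reverse ATTGG within 250 bases before their start, against 37.5% of all 27025 genes of the table. The 100 bases before the RefSeq starts of H2-Aa (chr17:34287824-34287923, minus strand), H2-Eb1 (chr17:34305767-34305866, plus strand) and H2-Ob (chr17:34238805-34238904, plus strand) in GRCm38.p6 are given 5′ to 3′, with each CCAAT or ATTGG in capitals.
H2-Aa: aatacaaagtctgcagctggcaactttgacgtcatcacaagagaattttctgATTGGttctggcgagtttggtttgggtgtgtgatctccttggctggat
H2-Eb1: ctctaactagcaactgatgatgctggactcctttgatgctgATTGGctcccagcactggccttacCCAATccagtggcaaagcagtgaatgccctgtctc
H2-Ob: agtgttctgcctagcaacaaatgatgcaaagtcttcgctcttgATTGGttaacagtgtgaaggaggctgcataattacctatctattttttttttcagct
All 3 held the letters in the ATTGG orientation, 48, 59 and 57 bases before the start, and H2-Eb1 held a CCAAT 35 bases before it as well. A match of letters does not show that a factor bound there.

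Class I molecules display peptides from inside the cell. Of 14 class I presentation genes with at least 200 UMIs, 2 were over 2-fold higher at 4 h and at 16 h each and 3 at 4 d. That is near the 17.6%, 17.2% and 21.2% of all genes there. At the remaining times 0 were higher, and 1 was over 2-fold lower at 2 d and 1 at 6 d, beside 5.54% and 5.4% of all genes. Those over 2-fold higher at 4 h and 16 h were Psmb8 and Psmb9, immunoproteasome subunits that cut peptides for class I, joined at 4 d by the proteasome activator Psme2. Their folds at 16 h were 2.13 and 2.16, and that of Psme2 at 4 d was 2.11. The TMM scaling given above would take these below 2-fold. Psmb8 was at 201 (151 to 262), 520 (478 to 564), 431 (393 to 472), 283 (257 to 310), 585 (534 to 639) and 308 (272 to 346) CPM, and Psmb9 at 55.8, 132, 124, 107, 214 and 85.5 CPM. Both were lowest at 0 h and highest at 4 d. The heavy chain H2-K1 was at 1316, 1005, 712, 592, 788 and 975 CPM and B2m, the light chain, at 1442, 775, 976, 1571, 941 and 982 CPM, so that these chains did not follow the proteasome subunits. None of 16 class I genes passed the time course test.

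**Figure D2:**
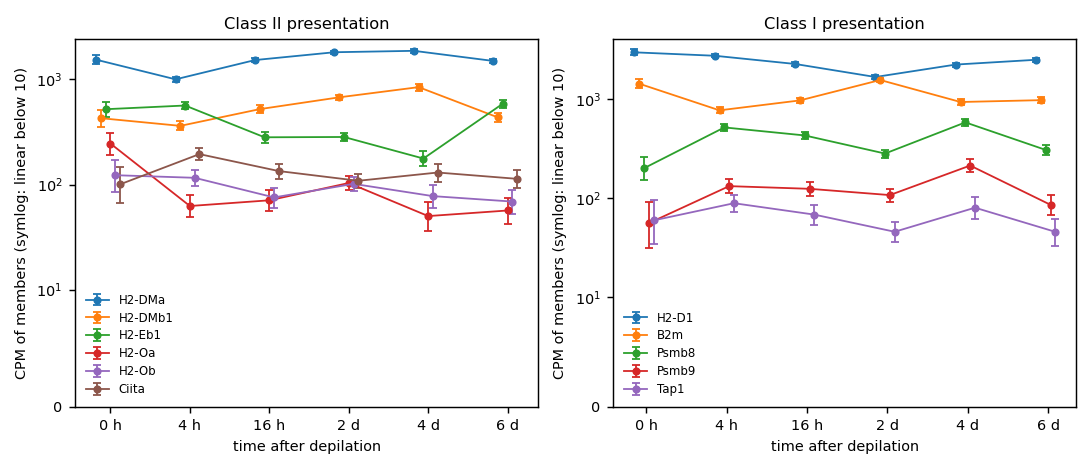
Levels (CPM, log axis) of class II genes on the left and class I genes on the right in the Langerhans cells of each library, with exact 95% Poisson intervals. H2-Eb1 drops from 564 CPM at 4 h to 177 CPM at 4 d, while H2-DMb1 and Psmb8 are highest at 4 d.

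Il1b, Il18 and Fcgr2b were highest at 4 h. Il1b, which encodes interleukin 1 beta, was at 160, 1447, 203, 172, 83.6 and 910 CPM. Il18, a cytokine of the same family that like Il1b is cut by the inflammasome, was at 167, 1115, 477, 279, 277 and 276 CPM. Il1b was thus high at 4 h and again at 6 d, where 16.6% of its UMIs came from 1 cell, while Il18 was high at 4 h and intermediate at 16 h. Fold differences from 0 h at 4 h were 8.95 for Il1b, and those of the Fc receptor Fcgr2b, which dampens signals of antibody complexes, were 18.3 at 4 h and 7.37 at 16 h, with 22.3, 441, 178, 86.1, 64.5 and 76.7 CPM at the 6 times.

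Folds were ranked among genes with a mean level in Langerhans cells at least that in all other passing cells. Among all genes some of keratinocytes were further above 0 h at 4 h, with Krt16 at 53.3-fold and Krt6b at 186 CPM from no UMI. Within the ranked genes the others with the largest folds at 4 h were Ms4a6d, a membrane protein of myeloid cells, at 21.8-fold, Scimp, an adaptor of class II signalling, at 9.43-fold, and Ifitm2, an interferon-inducible membrane protein, at 7.1-fold. Ms4a6d was at 11.2 CPM at 0 h, which is 3 UMIs (plain ratio of CPM at 4 h to 0 h 25.4, interval 8.62 to 124), at 284 CPM at 4 h and at 14.4 to 32.2 CPM later. After thinning each cell to 2000 UMIs, 60.4% of the 4 h Langerhans cells had an Fcgr2b UMI, 43.3% an Il1b UMI and 79.7% an Il18 UMI, against 4.55%, 13.6% and 29.6% at 0 h. In basal keratinocytes of the 4 h library, which have a median of 8808 UMIs against 4226, these shares were 0.0582%, 0.563% and 1.32%. Without thinning the Langerhans cell shares at 4 h were 85%, 49.7% and 91.4%.

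The ranked genes furthest below their 0 h level at 4 h included a neuropeptide receptor subunit and an ATP channel. Ramp1, which pairs with the receptor for calcitonin gene-related peptide, was at 271 (213 to 341), 11.8 (6.27 to 20.1), 156 (134 to 182), 193 (172 to 217), 406 (364 to 451) and 249 (217 to 284) CPM. P2rx2, an ATP-gated ion channel, was at 238, 18.1, 109, 147, 164 and 118 CPM. For both the 4 h value lay below all others with no overlap of intervals, and the folds below 0 h were 22.3 and 12.9. The phosphatase gene Ptpn18 was 8.81-fold, Qpct, a glutaminyl cyclase, 10.1-fold and Gm50022 8.45-fold lower at 4 h.

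On a list of cytokines, chemokines and their receptors that leaves out Ccl22, Ccl1 and Ccr7, which are described below, 8 of 25 measured genes had at least 200 UMIs, of which 2 were over 2-fold higher and 2 lower at 4 h, 1 and 3 at 16 h, 0 and 1 at 2 d, 0 and 4 at 4 d, and 1 and 2 at 6 d. Il1b and Il18 were the pair higher at 4 h. Of all genes, 17.6%, 17.2%, 11.5%, 21.2% and 10.7% were over 2-fold higher at these times in turn. The shares over 2-fold lower were 9.33%, 8.12%, 5.54%, 12.9% and 5.4%. Of the 25, 9 had their highest level at 4 h, or 36%, against 18.4% of all 15856 measured genes. They were Il1b, Il18, Cxcl2, Cxcl16, Cxcl10, Ccl4, Csf1, Cxcr4 and Tnfrsf1b, and the last 3 had only 17, 17 and 77 UMIs over all libraries. Some of these signals came from single cells: all 90 UMIs of Cxcl10 at 4 h were in 1 cell, as were 98.5% of the 68 UMIs of Ccl4. Ccl3, Ccl5 and Ccl9 had no UMI in any library. Of the pattern and Fc receptors, 4 of 13 measured genes had at least 200 UMIs, 2 of them, Fcgr2b and the inflammasome adaptor Pycard, over 2-fold higher at 4 h, beside 17.6% of all genes, and Tlr1 and Tlr7 had no UMI at all. Pycard was highest at 16 h, at 302 CPM, where the basal keratinocyte genes also had their highest sum, and its mean of 174 CPM in Langerhans cells was below the 308 CPM in all other passing cells. The part of keratinocyte RNA in this was not tested. Cd14, a coreceptor for lipopolysaccharide, was at 212, 186, 65.3, 48.2, 27.5 and 84.4 CPM. None of 11 genes of the first list and 10 of the second passed the time course test, while Ccl22 and Ccl1, outside them, did.

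A further set was high at 0 h, lowest at 4 d and high again at 6 d. Rel, an NF-kB subunit, was at 1216 (1087 to 1355), 204 (178 to 232), 179 (155 to 206), 448 (415 to 482), 89.5 (70.4 to 112) and 647 (595 to 701) CPM. Gadd45b, a stress gene, was at 1260, 209, 127, 235, 97.9 and 671 CPM, and Nfkbia, the inhibitor that NF-kB itself induces, at 1736, 612, 636, 874, 409 and 1781 CPM. Il1r2, the decoy receptor that binds interleukin 1 without signalling, was at 1119, 630, 310, 656, 52.5 and 952 CPM. All 4 were lowest at 4 d, with intervals below those of every other time except that of Gadd45b, which met its 16 h interval.

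Among the genes ranked as above, the largest folds below 0 h at 4 d were those of Rhof at 37.8-fold (3 UMIs at 4 d, plain ratio 43.6, interval 13.9 to 220), Il1r2 at 21.1-fold, Pgf, a growth factor of vessels, at 19.7-fold, Sqstm1, the autophagy receptor p62, at 17.6-fold and Rel at 13.5-fold. The keratinocyte genes Krt6a and Sprr1b, outside that ranking, had no UMI at 4 d, from 5 and 3 UMIs at 0 h. At 16 h Cmc2 was 6.78-fold, the nucleolar gene Nop16 5.83-fold and Ccr7 5.29-fold higher, over 2, 3 and 2 UMIs at 0 h with intervals of the plain ratio of 2.24 to 70.9, 2.23 to 33.5 and 1.73 to 55.5, and the largest folds below 0 h were Gadd45b at 9.91-fold, Rhof at 9.29-fold, Sqstm1 at 9.25-fold, Fnip1 at 7.09-fold and Zbtb10 at 6.98-fold. After thinning, 72.7% of Langerhans cells had an Il1r2 UMI at 0 h and 10.2% (5.56 to 16.9) at 4 d, against 19.9% and 13.4% of basal keratinocytes, so the 4 d share did not exceed that of the surrounding cells.

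At 2 d Cmc2 was 6.6-fold (interval 2.21 to 68.8) and Basp1 6.49-fold higher, and Gadd45b 5.36-fold, the endocytic recycling gene Ehd1 5.3-fold, Rhof 4.97-fold and the sterol sensor partner Insig1 4.78-fold lower. At 6 d Basp1 was 6.11-fold, the kinase regulator Pik3r5 5.68-fold (3 UMIs at 0 h, interval 2.15 to 32.7) and Il1b 5.63-fold higher, and Rgcc 6.9-fold and Fnip1 6.1-fold lower. The T cell gene Cd3g had 66 UMIs at 0 h and 0 at 6 d, 73.6-fold lower when set against 3 UMIs. Of the Langerhans cells, 3 of 46 and 2 of 151 had any Cd3 UMI at these times. In the T cells of the same libraries Rhof was at 189, 124, 81.3, 91.7, 48 and 151 CPM and Nfkbia at 1448, 678, 737, 948, 677 and 1260 CPM, also high at 0 h and 6 d. Whether handling of the libraries shared by both cell types took part was not tested.

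Costimulatory and maturation genes had their highest levels at different times. Of 18 measured, the number highest at each time was 4, 2, 0, 6, 3 and 3. The 6 at 2 d are 33.3%, against 11.2% of all 15856 measured genes. They were Ccl22, Ccr7, Fscn1, Samsn1, Cd80 and Ccl17, and the last pair had only 10 and 2 UMIs over all libraries. Ccl22, Ccr7 and Fscn1 lay mostly in the same few cells there, as described below. The 2 d library also held the most Langerhans cells and UMIs, so this share does not show a peak of the list as a whole. Cd83, a maturation marker that stabilises class II on the surface, was at 784, 263, 151, 410, 87.1 and 639 CPM, and Cd86, the ligand of CD28, at 487, 543, 274, 359, 204 and 361 CPM. Both were lowest at 4 d. Cd40 was at 21.2 to 96.9 CPM, highest at 4 h, and Pdcd1lg2 and Tnfsf4 had no UMI.

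Ccl22, a chemokine of mature dendritic cells that attracts T cells through CCR4, was at 0, 9.06 (4.34 to 16.7), 55.2 (42.1 to 71), 371 (341 to 402), 142 (118 to 170) and 26.7 (17.1 to 39.7) CPM. It had no UMI at 0 h. Set against 3 UMIs there, which would be 11.2 CPM, its level from 16 h on was 4.95-fold, 33.2-fold, 12.7-fold and 2.39-fold higher in turn. These folds count UMIs, which lay in few cells. After thinning, 0 of 44 cells at 0 h had a Ccl22 UMI. The interval of that share reached 8.04% and held the share of every later time, so no smallest fold is set by cells. Ccr7 was at 7.43, 0.906, 48.7, 105, 17.9 and 13.3 CPM, and Fscn1, the actin bundler of dendrites, at 3.72, 4.53, 8.28, 80.3, 46.6 and 31.1 CPM. All 3 were highest at 2 d, where the folds above 0 h were 11.4 for Ccr7 and 14.5 for Fscn1, over 2 and 1 UMIs at 0 h, with intervals of the plain ratio of 3.86 to 118 and 3.81 to 860.

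At 2 d these UMIs lay mostly in a few cells, since 22 of 299 Langerhans cells had a Ccl22 UMI, and in those 22 cells Ccr7 was at 1651, Fscn1 at 1178 and Cd83 at 1138 CPM, against 0, 5.49 and 360 CPM in the other 277. The few Ccl22 cells of other libraries varied. Ccr7 was at 0, 2459, 1224 and 103 CPM in them at 4 h, 16 h, 4 d and 6 d, and Fscn1 at 0, 284, 3322 and 641 CPM, against at most 9.29 CPM of Ccr7 and 4.61 CPM of Fscn1 in the other cells there. Cd207 was at 2466 and 2500 CPM in the cells with and without Ccl22 at 2 d. In the 2 to 5 cells with Ccl22 of the other libraries it was higher than in the rest, at 15270 against 5133 CPM at 4 h, 7092 against 2028 at 16 h, 4545 against 2187 at 4 d and 9772 against 7522 at 6 d. Ccl22 was found in 0, 5, 4, 22, 2 and 5 cells in turn, and the top cell held 88.3% of its UMIs at 16 h and 79% at 4 d. After thinning, 6.97% of Langerhans cells had a Ccl22 UMI at 2 d, against 0.852% of T cells and 0.135% of basal keratinocytes there, and at most 2.11% of Langerhans cells at another time.

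**Figure D3:**
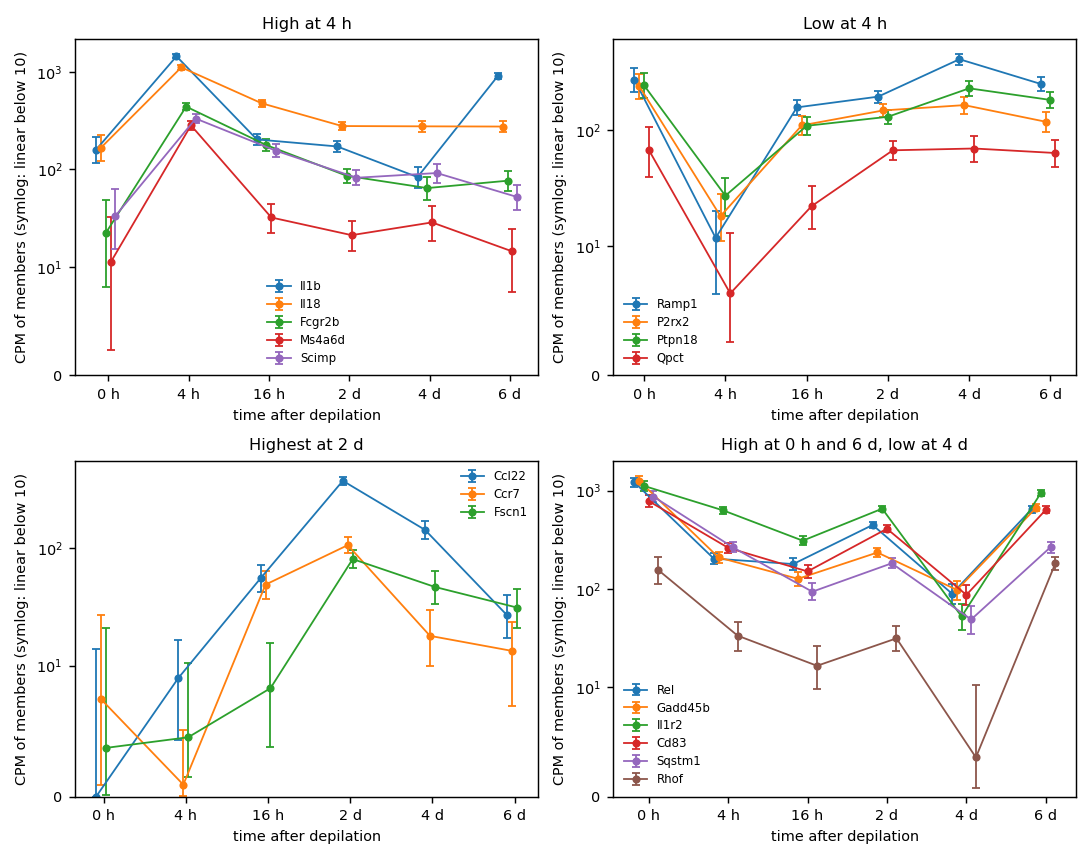
Levels (CPM, axis linear near 0 and logarithmic above) of named genes in the Langerhans cells by time after depilation, with exact 95% Poisson intervals, in 4 panels by shape of the course. The panels hold genes high at 4 h, genes low at 4 h, genes highest at 2 d such as Ccl22 at 371 CPM, and genes high at 0 h and 6 d and low at 4 d such as Rel.

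Across the 6 libraries, a smooth course over time was tested for each gene with edgeR's quasi-likelihood test, a spline of hours with 3 degrees of freedom that leaves 2 residual ones. Of 8422 genes tested, 11 passed a false discovery rate of 0.05, or 0.131%, and 353 had an unadjusted p under 0.05. They were Ccl22 and Pclaf, a DNA replication factor, at an adjusted p of 0.01237, Krt28, Cst6, Akr1c18, Stfa3, Ccl1, Sprr1b and the nucleotide reductase subunit Rrm2 at 0.02006, the histone chaperone Asf1b at 0.02138 and Lhx2 at 0.02304. Only Ccl22, Ccl1 and Asf1b of these had a mean level in Langerhans cells at least as high as in all other passing cells. Krt28, Cst6, Stfa3, Sprr1b and Lhx2 are known from keratinocytes and hair follicles.

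By list, 2 of 22 S phase genes and 1 of 12 costimulation and maturation genes passed, and 0 of the genes tested in every other list. Ccl1, a chemokine, was at 26.3 CPM at 2 d and 50 CPM at 6 d and had no UMI at the other times, and 1 cell held 73.2% and 97.8% of its UMIs there. Without predicted doublets 0 genes passed, and the adjusted p of Ccl22 was 0.3256 there by edgeR. With any 1 library left out 44 to 158 genes passed, which included Ccl22 each time. Those fits leave fewer than 2 residual degrees of freedom, so passing in them does not show that a call is stable.

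**Figure D4:**
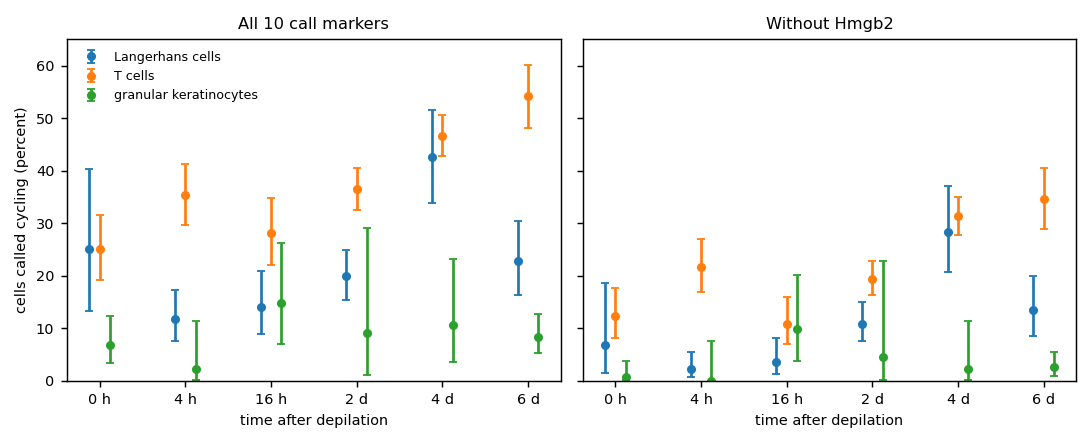
Share (percent) of Langerhans cells, T cells and granular keratinocytes called cycling at each time after depilation, with exact 95% binomial intervals, with all 10 call markers on the left and without Hmgb2 on the right. The Langerhans cell share is highest at 4 d, at 42.5% and 28.3%.

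Dividing Langerhans cells were counted from 10 genes of proliferating cells, Top2a, Mki67, Birc5, Tpx2, Cenpa, Cenpf, Nusap1, Prc1, Ube2c and Hmgb2. With each cell thinned to 2000 UMIs, which left out 40 shallower Langerhans cells, at least 2 UMIs of these genes were found in 11 of 44 cells or 25% (13.2 to 40.3), 22 of 187 or 11.8% (7.52 to 17.3), 20 of 142 or 14.1% (8.82 to 20.9), 57 of 287 or 19.9% (15.4 to 25), 54 of 127 or 42.5% (33.8 to 51.6) and 34 of 149 or 22.8% (16.4 to 30.4). The 4 d share was the highest, and its interval lay above those of 4 h, 16 h, 2 d and 6 d and met that of 0 h. The 0 h share rested mostly on Hmgb2, a chromatin protein that cells also hold outside division. Without Hmgb2 the shares were 6.82% (1.43 to 18.7), 2.14% (0.586 to 5.39), 3.52% (1.15 to 8.03), 10.8% (7.46 to 15), 28.3% (20.7 to 37) and 13.4% (8.4 to 20), and the 4 d interval lay above all others. Without thinning, the shares by all 10 genes were 60.9%, 31.4%, 49.3%, 41.8%, 52.5% and 58.9%, and that of 4 d was then not the highest.

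Cells that divide little served as the background. Of granular keratinocytes, the last living layer of the epidermis, 2.13% to 14.8% were called cycling, and 0% to 9.84% without Hmgb2, from much deeper cells with medians of 10696 to 35594 UMIs. In the 4 h library 1 of 47 granular keratinocytes was called, or 2.13% (0.0539 to 11.3), and in the 16 h library 9 of 61, or 14.8% (6.98 to 26.2). In the 2 d library 2 of 22 were called, or 9.09% (1.12 to 29.2). Each of these intervals met that of the Langerhans cells there. Without Hmgb2 the intervals of both cell types met at 0 h, 4 h, 16 h and 2 d. T cells were called cycling in 25%, 35.3%, 28.1%, 36.5%, 46.6% and 54.2%, highest at 6 d, and basal keratinocytes in 21.4%, 7.26%, 31.3%, 29%, 28.9% and 25.7%. Free RNA can add UMIs to such calls. At 4 d, 24 of the 54 cycling Langerhans cells and 14 of the 73 others were predicted doublets, and without predicted doublets the share there was 33.7% (24 to 44.5). That interval still lay above those of 4 h, 16 h and 2 d, and it met those of 0 h and of 6 d, where the share was 19% (12.3 to 27.3).

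Cell cycle genes that the call had not used were highest at 4 d as well. Of 33 genes of the G2 and M phases, 32 were highest at 4 d, and of 27 S phase genes 24 were, or 97% and 88.9%, against 26.4% of all 15856 measured genes. Stmn1, which destabilises microtubules, was at 29.7, 10.9, 126, 189, 1155 and 328 CPM. Pclaf was at 0, 0.906, 12, 95.7, 260 and 57.8 CPM, and Ccna2, the cyclin A of dividing cells, at 0, 0, 6.44, 12.9, 93.1 and 6.67 CPM. At 0 h 20 of the 33 G2 and M genes had no UMI, and at 4 h 16 did (60.6% and 48.5%, against 34.6% and 20.2% of all measured genes), although 4 h held more UMIs in all than 16 h, 4 d or 6 d. The lists summed to 4520, 2519, 3367, 3864, 8698 and 4531 CPM for G2 and M, of which the histone variant H2afz made up 3628 at 0 h and 3777 at 4 d, and to 480, 297, 500, 907, 1682 and 737 CPM for S phase.

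Stmn1 was 36.6-fold above 0 h at 4 d, over 8 UMIs at 0 h, with a mean level in Langerhans cells below that in all other passing cells. Among genes at least as high in Langerhans cells, the largest folds at 4 d, besides Ccl22 and Fscn1, were those of the histone variant H2afx at 13-fold, Cmc2 at 12.3-fold (2 UMIs at 0 h, plain ratio 15.3, interval 4.11 to 128) and Birc5, a call marker that guards chromosome segregation, at 11.8-fold. The T cells of the 4 d library also held their highest sum of both lists, 5813 CPM for G2 and M and 2383 CPM for S phase. In all other passing cells the highest sums stood at 4 d too, at 5561 and 1770 CPM, so a high value at 4 d was not confined to Langerhans cells.

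Within each library, cycling Langerhans cells were compared with the others by edgeR's quasi-likelihood test with the library as a block, over 6 libraries and 5 residual degrees of freedom, leaving out the call markers. Of 6307 genes tested, 135 were higher in cycling cells, or 2.14%, and 37 were lower, or 0.587%. Of G2 and M genes, 26 of 30 rose, of S phase genes 11 of 20, and of 12 cell cycle control genes 1, the inhibitor Cdkn2d. Since the cells were called by genes of the same programme, these counts describe the call and are not separate evidence of division.

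Hmmr, a spindle protein, was at 0, 0, 73.9, 43, 177 and 32.9 CPM in cycling cells of the 6 libraries and at no more than 1.16 CPM in the others, a log2 fold change of 5.99 with an adjusted p of 3.694e-09. The largest rise was that of the histone gene Hist1h2ak at 6.69, followed by the spindle checkpoint kinase Bub1b at 6.31, Hmmr, the DNA glycosylase Neil3 at 5.94, the linker histone Hist1h1b at 5.45, Aspm and Knl1 at 5.44, Cit at 5.39, Melk at 5.35 and Krt28 at 5.34. At 0 h and 4 h, cycling cells had 0 UMIs of Hist1h2ak, Hmmr, Hist1h1b, Cdk1, Ccnb2, Cdc20, Pclaf and Rrm2, so the rises of these genes rest on 16 h to 6 d. Neil3 was higher in cycling cells in 3 of 6 libraries, and Krt28, a keratin of the hair follicle, in 2 of 6, with UMIs at 4 d and 6 d only. Cycling cells were also deeper, with a median of 7356 against 3776 UMIs at 4 d and 5922 against 3946 at 2 d.

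Promoters of such genes are known for CCAAT boxes and for the cell cycle homology region, a TTTGAA element bound by the DREAM and MuvB complexes. Within 250 bases before the start, CCAAT on either strand was found in 62.3% of the 106 genes higher in cycling cells that the RefSeq table held, in 40.2% of the 5057 tested genes it held and in 37.5% of all genes. TTTGAA or TTCAAA was found in 27.4%, 12.3% and 18.3%. The 100 bases before the starts of Cdc20 (chr4:118437344-118437443), Ccnb2 (chr9:70421555-70421654) and Hmmr (chr11:40733438-40733537), all on the minus strand of GRCm38.p6, are shown 5′ to 3′ with both motifs in capitals, as examples of genes that rose in cycling Langerhans cells.
Cdc20: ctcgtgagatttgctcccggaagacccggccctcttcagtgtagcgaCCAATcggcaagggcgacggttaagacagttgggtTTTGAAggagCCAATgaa
Ccnb2: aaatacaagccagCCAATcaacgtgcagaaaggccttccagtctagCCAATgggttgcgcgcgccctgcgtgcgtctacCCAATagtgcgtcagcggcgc
Hmmr: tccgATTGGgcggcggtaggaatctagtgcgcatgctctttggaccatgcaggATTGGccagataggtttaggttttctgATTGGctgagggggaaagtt
Cdc20 held 2 CCAAT boxes with a TTTGAA between them, and Ccnb2 and Hmmr held 3 boxes each in a single orientation. Their log2 rises were 5.23 for Cdc20 and 4.90 for Ccnb2, beside 5.99 for Hmmr.

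The genes lower in cycling cells were of 2 kinds. Of the 10 largest falls, 8 were in genes with a lower mean level in Langerhans cells than in other passing cells, Krt6b at -4.25, Sprr1b at -2.47, Asprv1 at -1.96, Cysrt1 at -1.81, Elovl4 at -1.74, Serpinb3b at -1.48, Pof1b at -1.32 and Plk2 at -1.19. The remaining pair was Metrnl at -1.40 and Prorsd1 at -1.23. The other kind, 28 of the 37 with the last pair included, had a mean level in Langerhans cells at least that in other passing cells. They included myeloid genes such as C1qa, Csf1r and the adaptor Tyrobp, the protease inhibitor Cst3, the interleukin 1 genes Il1b and Il1r2, the class II regulator H2-Ob and the gelatinase Mmp9.

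C1qa was at 216, 544, 388, 248, 249 and 216 CPM in cycling cells and at 199, 689, 597, 417, 467 and 346 CPM in the others, a log2 fold change of -0.65 with an adjusted p of 0.002634 by edgeR. It was lower in cycling cells in 5 of 6 libraries. Tyrobp was lower in 6 of 6 (-0.58, adjusted p = 0.001086 by edgeR), with 766 against 1312 CPM at 4 d, and Csf1r in 5 of 6 (-0.49, adjusted p = 0.03138 by edgeR), with 245 against 388 CPM at 4 d. Cd74, which the choice of cells used, was not tested. As a description, Cd74 was lower in cycling cells in 5 of 6 libraries, for example 23740 against 29560 CPM at 4 d. Of the other genes that the choice used, Cd207 and H2-Ab1 were lower in 5 of 6 and H2-Aa in 4 of 6.

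**Figure D5:**
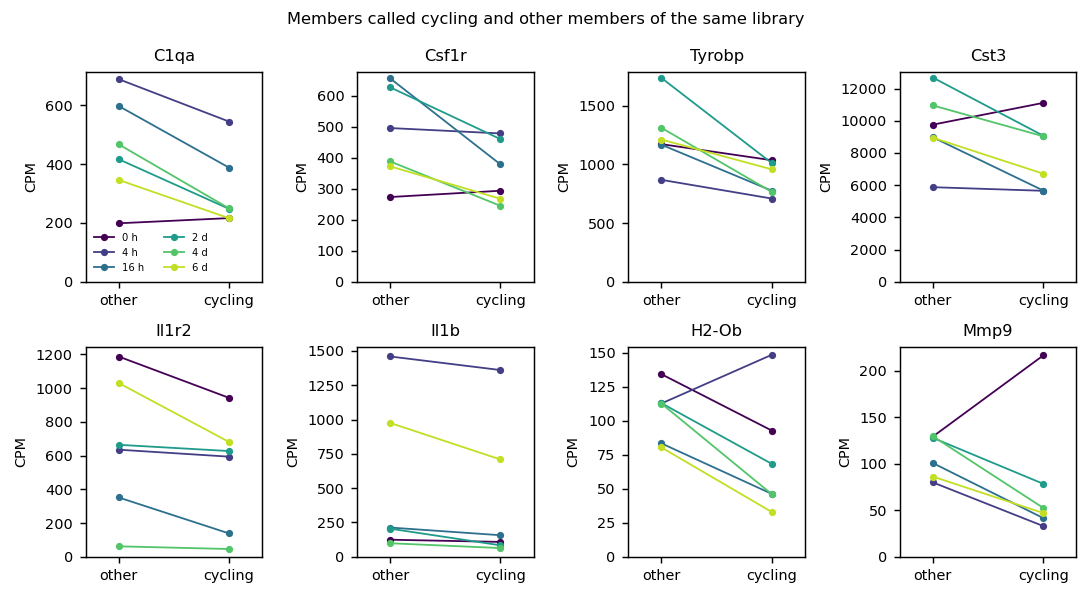
Levels (CPM) of 8 genes in the cycling and the other Langerhans cells of each library, 1 line per library. C1qa, Csf1r, Tyrobp, Cst3, Il1r2, Il1b, H2-Ob and Mmp9 were lower in cycling cells in at least 5 of 6 libraries.

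These smaller falls depended on the cells and libraries used. Of the 28 genes, 2 were still called without predicted doublets, with 25 not called and 1 not tested, 6 in the 787 cells without T cell or keratinocyte UMIs, 16 with the call made without Hmgb2, 4 by DESeq2 and 3 without the 2 d or without the 4 d library, and Il1b was higher, by 0.61, with the call made without Hmgb2. Of class II genes 1 of 12 tested was lower (H2-Ob), of macrophage genes 1 of 4 (C1qa), of activated keratinocyte genes 1 of 4 (Krt6b), of cytokine and receptor genes 2 of 9 (Il1b and Il1r2) and of identity genes 1 of 19 (Csf1r), while 0 of 14 class I, 11 costimulation, 9 pattern and Fc receptor, 16 lysosome and 8 leukotriene genes passed in either direction. Of basal keratinocyte genes 2 of 5 were higher in cycling cells, of suprabasal ones 0 of 7 passed, and of T cell genes 0 of 8. Beside these counts, 0.587% of all 6307 genes tested were lower and 2.14% higher.

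To see whether a gene's course differed between Langerhans cells and T cells of the same libraries, the interaction of cell type with log2(hours + 1) was tested in edgeR with the library as a block. Of 9917 genes tested, 0 passed a false discovery rate of 0.05 (0%), and DESeq2 called 0 as well, while 668 had an unadjusted p under 0.05. With 4 residual degrees of freedom this does not show that the courses were alike. Without the 0 h library, 9 genes passed.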

How the data were processed

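Cells of dorsal skin were profiled with the 10x Genomics 3′ kit in 6 libraries. Per the labels, reads were processed with Cell Ranger 6.1.2 on mm10, and the deposited filtered matrices hold raw UMI counts per gene and barcode for 32285 genes, which the authors had not normalized. The annotation version is not given in the sources used here. The 3′ counts do not depend on transcript length. Library totals were 73894299, 72634390, 112370376, 99686327, 95678280 and 88632160 UMIs from 0 h to 6 d. The paper's results text names 6 h where the labels and its methods give 16 h.

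Langerhans cells were chosen by the rule given above. The cells, gene lists, markers, tests and most alternatives were chosen with earlier results of these data known. Comparison cells were T cells (3154, at least 3 Cd3d, Cd3e and Cd3g UMIs), basal keratinocytes (29905, Krt5 and Krt14 at 100 or more per 10000, no Ptprc or Cd207 UMI) and granular keratinocytes (570, at least 10 Lor UMIs at 50 or more per 10000, no Cd207 UMI). No barcode of a Langerhans cell occurred in 2 libraries, and 367 barcodes of passing cells did. Doublets were scored with Scrublet in scanpy 1.11.5, and the top 0.8% per 1000 barcodes of a library were marked and kept in the main results.

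Counts were summed per library and given as CPM with exact Poisson intervals, shares with exact Clopper-Pearson intervals, and folds against 0 h with 0.5 UMI added. Where either count was 1 to 3 UMIs, the plain ratio of CPM was given an exact binomial interval. Where a gene had 0 UMIs, its fold was also given against 3 UMIs. Tests used edgeR 4.0.16 in R 4.3.3 with TMM, filterByExpr and the robust quasi-likelihood fit, and a Benjamini-Hochberg FDR of 0.05 over all genes tested. Sums needed at least 10 cells. DESeq2 1.42.0 was an alternative, with other filters, time scales, calls, thinning depths and each library left out. The fits were tested on simulated data. Cd207, Cd74, H2-Aa and H2-Ab1 were not tested.

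Genes named were members of 30 lists and, outside them, for the time course the 10 of each direction with the largest range, for cycling cells the 10 largest changes each way, for folds the 5 largest each way and time among genes at least as high in Langerhans cells as in other cells, and the 10 highest ratios to other cells.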

Additional observations from a re-analysis of the deposited data

How the results depend on the processing

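Every time point is 1 library, so library and time cannot be told apart. Depth limits low genes most at 0 h, where 3 UMIs are 11.2 CPM. The share of Langerhans cells at 4 d was 0.943% without predicted doublets, and its interval then met that of 0 h. The shares under the other limits on Cd207 and class II UMIs stayed within their counting intervals.

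The cycling share (in order of time) moved with the call. It was 60.9%, 31.4%, 49.3%, 41.8%, 52.5% and 58.9% without thinning, 6.52%, 1.57%, 5.48%, 12%, 28.2% and 8.61% thinned to 1000 UMIs, 59.1%, 36.9%, 40.9%, 46.7%, 72.4% and 58.4% at 1 UMI or more, 2.27%, 0%, 1.41%, 6.97%, 29.9% and 8.73% at 4 UMIs or more, and 6.82%, 2.14%, 3.52%, 10.8%, 28.3% and 13.4% without Hmgb2, a choice made after seeing the data. At 4 d it was 33.7% without predicted doublets. Of these settings, the share was highest at 4 d in all but the one without thinning.

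The time course called 11 of 8422 genes tested. On the same 8422 genes it called 24 by DESeq2, 44 on log2(hours + 1), 25 on the rank of the time point and 0 with a linear trend of hours. It called 215 of 15856 without a count filter and 0 of 6342 without predicted doublets. In cells without T cell or keratinocyte UMIs (chosen after seeing the data) it called 29 of 6371. With a library left out it called 44 to 158 of 7931 to 8437, in fits with fewer than 2 residual degrees of freedom. The trend of Sprr1b turned to 3.29 on log2(hours + 1), 3.05 on ranks, 0.087 without the 16 h library and 1.76 without the 4 d library, and was -6.99 without the 6 d library. Cycling against other cells called 172 of 6307 genes tested, and 95 of these 6307 by DESeq2. It called 356 of 15827 without a count filter, 71 of 4052 without predicted doublets and 0 of 4511 without the library block. With the call without Hmgb2, which left the 2 d, 4 d and 6 d libraries, 394 of 5728 were called. With a library left out 62 to 248 of 5076 to 6534 were called. In this comparison Il1b turned to 0.61 with the call without Hmgb2. Asking for at least 5 cycling cells took the same 6 libraries. The difference in trend from T cells called 3 of 18511 genes without a count filter and 0 to 9 of 9570 to 10046 with a library left out. Genes past 2-fold numbered 675 at 4 h and 583 at 16 h without predicted doublets, 2639, 2516, 1958, 2991 and 1973 from 4 h to 6 d with a minimum of 50 UMIs, and 676, 593 and 409 at 4 h, 16 h and 2 d in cells without T cell or keratinocyte UMIs. The number of genes that reached the minimum differed between these settings and is not given here. These numbers therefore cannot be set against those of the main result as shares. The causes were not tested.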

Other observations

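The Bcl-2 family holds proteins that guard mitochondria and others that permeabilise them. Mcl1, which keeps the mitochondrial pore proteins in check, was at 1654 (1504 to 1815), 994 (936 to 1054), 652 (605 to 702), 616 (578 to 656), 456 (411 to 504) and 693 (640 to 750) CPM from 0 h to 6 d. Its value was highest at 0 h and lowest at 4 d, and in the T cells of the same libraries it lay between 216 and 295 CPM. Bcl2a1b, another pro-survival member whose near-identical copies can share reads, was at 290, 214, 132, 251, 72.8 and 542 CPM. The effectors of cell death Bax and Bok were lowest at 0 h, at 92.9 and 22.3 CPM, with Bax 2.25-fold and Bok 2.64-fold higher at 4 h. The TMM scaling given above would take Bax below 2-fold there. The effector Bak1 was lowest at 6 d, at 7.78 CPM, and was 1.5-fold higher at 4 h. Of 6 members of the family with at least 200 UMIs, Bax and Bok were over 2-fold higher and Bcl2l1 over 2-fold lower at 4 h. Of all genes, 17.6% and 9.33% were so there. At 16 h 1 was higher and 3 lower, beside 17.2% and 8.12% of all genes. The same counts held at 4 d, beside 21.2% and 12.9%. At 2 d and 6 d 0 were higher and 1 lower each, beside 11.5% and 5.54%, and 10.7% and 5.4%. Bok was highest at 16 h, at 92.9 CPM, as was the sum of the basal keratinocyte genes in these cells, and its mean of 47.8 CPM was below the 150 CPM in all other passing cells. The part of keratinocyte RNA in its values was not tested. None of 11 family genes passed the time course test.

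Stress genes can be set beside those of the T cells of the same libraries. The 21 immediate early genes, which digestion of tissue can induce, summed to 20420, 20370, 21190, 15120, 15090 and 12470 CPM in Langerhans cells and to 24170, 19130, 20080, 14650, 16230 and 14810 CPM in T cells. The 12 heat shock genes summed to 7910, 7131, 5887, 5402, 5345 and 7761 CPM, against 8972, 6585, 6472, 6588, 6655 and 9139 CPM in T cells, and were high at 0 h and 6 d in both. Lars2, a mitochondrial tRNA synthetase and, of genes at least as high in Langerhans cells as in other passing cells, the one furthest below 0 h at 2 d (6.86-fold), was at 48.2 CPM there and at 40.8 CPM in T cells. None of 21 immediate early or 12 heat shock genes passed the time course test.

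Other groups were counted the same way, beside the 17.6% of all genes over 2-fold higher and 9.33% over 2-fold lower at 4 h. Of 14 lysosome and cathepsin genes with at least 200 UMIs, 1 was over 2-fold higher and 1 lower than at 0 h at 4 h, with the cathepsin Ctsz at 193, 594, 260, 196, 215 and 262 CPM. Of 6 leukotriene and prostaglandin genes, 1 was higher and 1 lower at 4 h, with Hpgds, the prostaglandin D synthase, at 1275, 605, 855, 859, 774 and 590 CPM. The 21 measured interferon-stimulated genes summed to 340 to 613 CPM, below the 659 to 1058 CPM in T cells, with 1 of 2 genes over 200 UMIs over 2-fold higher at 16 h, beside 17.2% of all genes. The cell cycle control genes summed to 1078 to 1492 CPM, with the inhibitor Cdkn1a highest at 6 d at 858 CPM and the kinase Cdk4 highest at 4 d at 173 CPM. Of 18 identity genes with at least 200 UMIs, 1 to 3 were over 2-fold higher and 1 or 2 lower at each time. Of all genes, 10.7% to 21.2% were higher and 5.4% to 12.9% lower at these times. Among the identity genes that were lower was Id2, a factor that Langerhans cells need, at 398 CPM at 0 h and 108 to 191 CPM later.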
